A study of Mus musculus with 2 samples.

Results

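The genes for the 2 corticosteroid receptors and 2 of their partners were followed through the cell classes of the mouse brain: Nr3c2 (the mineralocorticoid receptor), Nr3c1 (the glucocorticoid receptor), Fkbp5 (a co-chaperone of the receptors) and Hsd11b1 (an enzyme that makes active corticosterone). These 4 were taken by their symbols from the 32285 genes of the count tables, and each symbol had 1 row. The data come from Slide-tags, in which nuclei of a frozen section receive spatial barcodes before droplet-based single-nucleus RNA sequencing, and the spatial positions were not analysed here. One library came from a coronal section through the hippocampus of an adult male C57BL/6J mouse, an inbred strain, perfused under isoflurane anaesthesia. The other came from a sagittal section, labelled brain, of a C57BL/6J embryo bought whole at embryonic day 14 (E14). The sources used here name no transgene for either mouse. With 1 library per tissue there were no replicates, so no test was made, and the intervals below cover counting error only.

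Corticosterone, the main glucocorticoid of mice, crosses membranes and binds both receptors inside the cell. The mineralocorticoid receptor binds it with the higher affinity and is known for its abundance in hippocampal neurons, whereas the glucocorticoid receptor is found in most cell types and is filled mainly when hormone is high, as in stress or at the daily peak. Bound receptors enter the nucleus and act on the same DNA element, an inverted repeat with a spacer. Fkbp5 lowers the hormone affinity of the glucocorticoid receptor and is itself a target of it, and Hsd11b1 regenerates corticosterone from its inactive keto form inside cells.

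After filtering, 1609 adult nuclei held 15346746 unique molecular identifiers (UMIs, each standing for 1 captured molecule; median 6607 per nucleus), and 9036 E14 nuclei held 58923882 (median 4204). Nuclei were clustered without the 4 genes, and clusters were named from marker lists, with "-like" added because the names were rebuilt here. In the adult library 11 classes were named, among them CA1-like (378 nuclei), dentate granule-like (428), CA3-like (35), astrocyte-like (100) and oligodendrocyte-like (239). All 8 of the listed markers were above 3 UMIs in the CA1-like, granule-like, astrocyte-like and oligodendrocyte-like classes, and 7 of 8 in the CA3-like class. The classes were named from these same lists, so this is no separate check of the names. At naming, 5, 8 and 7 markers passed in the CA1-like clusters of 194, 136 and 48 nuclei. In the granule-like clusters of 221 and 207 nuclei 6 and 4 passed, 4 being the minimum. In the E14 library 61.3% of nuclei stayed unnamed, against 6.77% in the adult. The 2 libraries shared 1 barcode.

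Some adult clusters stood apart by depth. One of the 3 clusters of the CA1-like class (194 nuclei, median 814 UMIs) had 0.636% of its UMIs from Malat1, a noncoding RNA retained in nuclei, where the other 2 clusters of that class had 6.36% and 6.95%, and 46 of its nuclei fell with a sub-cluster led by a granule neuron gene, described below. A thalamic-like cluster of 60 nuclei (median 1019 UMIs) had 0.727%, and an unnamed cluster of 88 nuclei led by Aif1, Igfbp2 and Dio2, with the astrocyte genes Sox9 and Aldoc among its leading 10, had 0.467%. Levels below are given with these nuclei and, where they matter, without them. Counts of nuclei by receptor and the spread per nucleus leave them out, and shares of nuclei with a UMI include them unless stated.

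Nr3c2 was highest in the principal neurons of the adult hippocampus. Levels are UMIs of a gene summed over a class, per 1000000 UMIs of that class (CPM), with the exact 95% Poisson interval. The level was 1268 (1233 to 1305) in CA1-like and 1243 (1214 to 1272) in granule-like nuclei, and these neighbours differed by a factor of 1.02 (0.984 to 1.06). CA3-like nuclei followed with 922 (854 to 993), and astrocyte-like nuclei came next with 571 (518 to 627). The remaining classes lay between 305 (253 to 365) in endothelial-like nuclei and 105 (84.0 to 129) in oligodendrocyte-like nuclei. Neurons outside the hippocampal principal layers were near the lower end, with 225 (188 to 268) in inhibitory-like, 162 (142 to 184) in thalamic-like and 150 (117 to 189) in cortical excitatory-like nuclei. From endothelial-like down to cortical excitatory-like, no neighbours in the order differed beyond their counting intervals. Without the Malat1-poor nuclei, the level in CA1-like nuclei was 1323 (1285 to 1362), 1.06 times (1.03 to 1.10) the granule-like level and above it beyond counting error.

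The span of Nr3c2 is long, chr8:76899442-77245012 on the plus strand of GRCm38 (345.6 kb, of which 6.47 kb are exons), and nuclear counts include introns. Levels of different genes are therefore given per kilobase of span, and ratios of raw UMIs are read between classes, not as the genes' relative levels. Per kilobase, Nr3c2 stood at 3.67 in CA1-like and 3.6 in granule-like nuclei, 1.65 in astrocyte-like and 0.303 in oligodendrocyte-like nuclei. The noncoding gene Gm10649 overlaps it on the opposite strand and had 955 UMIs in the adult library against 13866 for Nr3c2.

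The share of nuclei with an Nr3c2 UMI also depended on depth. It was 61.1% of CA1-like nuclei (median 2928 UMIs; 96.7% without the Malat1-poor nuclei), 97.9% of granule-like (11382), 94.3% of CA3-like (18913) and 79.0% of astrocyte-like nuclei (6301), beside 39.5% of microglia-like nuclei (2099), which served as the background class. To set depths equal, each nucleus was thinned to 1000 UMIs and shallower nuclei were left out, 121 of them CA1-like, 1 granule-like, 1 astrocyte-like, 1 microglia-like and 10 oligodendrocyte-like. The thinned shares were 65.3% (60.6 to 69.9) in granule-like, 54.5% (48.2 to 60.7) in CA1-like and 40.4% (30.7 to 50.7) in astrocyte-like nuclei, all above the 8.11% (1.70 to 21.9) of microglia-like nuclei. Without the Malat1-poor nuclei the thinned share of CA1-like nuclei was 66.8% (59.5 to 73.6), which overlaps that of granule-like nuclei. Oligodendrocyte-like nuclei were at 8.30% (5.07 to 12.7), not distinguishable from the background class. That class was not shown to lack the gene, its Nr3c2 level being 202 CPM with 0 Neurod6 UMIs (exact interval 0 to 39.1 CPM).

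Free RNA from broken cells can add UMIs to any droplet. Neurod6, a transcription factor gene of CA pyramidal neurons, had 228 CPM in CA1-like, 1.56 in granule-like, 4.82 in oligodendrocyte-like and 15.8 in astrocyte-like nuclei. Astrocyte-like nuclei thus stood at 21.4% of the library's Neurod6 level and at 63.2% of its Nr3c2 level. They had 36.2 Nr3c2 UMIs per Neurod6 UMI, where CA1-like nuclei had 5.57, the whole library 12.3 and granule-like nuclei 797. Oligodendrocyte-like nuclei stood at 6.54% of the Neurod6 level and 11.6% of the Nr3c2 level. The part of free RNA in the glial Nr3c2 levels was not tested.

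Nr3c1 had another order, with glial, vascular and thalamic nuclei above hippocampal neurons. The gene lies at chr18:39410545-39519421 on the minus strand (108.9 kb). Its level was highest in microglia-like nuclei, 509 (376 to 675) from 48 UMIs, followed by 305 (253 to 365) in endothelial-like and 270 (244 to 298) in thalamic-like nuclei. Oligodendrocyte-like nuclei had 195 (166 to 228), astrocyte-like 167 (139 to 199), precursor-like 161 (106 to 234) and cortical excitatory-like 140 (108 to 177), and no neighbours in this stretch differed beyond their intervals. CA1-like nuclei followed with 118 (107 to 129) and granule-like nuclei with 97.5 (89.6 to 106), a difference of 1.21-fold (1.06 to 1.37) between the 2 large hippocampal classes. The lowest levels were 51.0 (34.2 to 73.3) in inhibitory-like and 46.8 (32.6 to 65.1) in CA3-like nuclei.

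Oligodendrocyte-like nuclei, the lowest class for Nr3c2, had 2.00 times (1.67 to 2.39) the Nr3c1 level of granule-like nuclei, and thalamic-like nuclei 2.29 times (2.00 to 2.63) that of CA1-like nuclei. After thinning to 1000 UMIs, 40.5% (24.8 to 57.9) of microglia-like, 22.6% (14.6 to 32.4) of thalamic-like, 16.6% (12.0 to 22.1) of oligodendrocyte-like, 11.3% (7.69 to 15.8) of CA1-like and 8.20% (5.78 to 11.2) of granule-like nuclei had an Nr3c1 UMI. Unthinned, the shares in these classes were 52.6%, 59.3%, 43.5%, 45.0% and 63.6%. Without the Malat1-poor nuclei they were 92.1% in thalamic-like and 78.3% in CA1-like nuclei, and 23.8% (14 to 36.2) and 9.24% (5.47 to 14.4) after thinning. No class was known to lack this gene. The share of oligodendrocyte-like nuclei with a Neurod6 UMI, 0.437% after thinning and 1.67% before, is given as the level of free RNA.

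**Figure D1:**
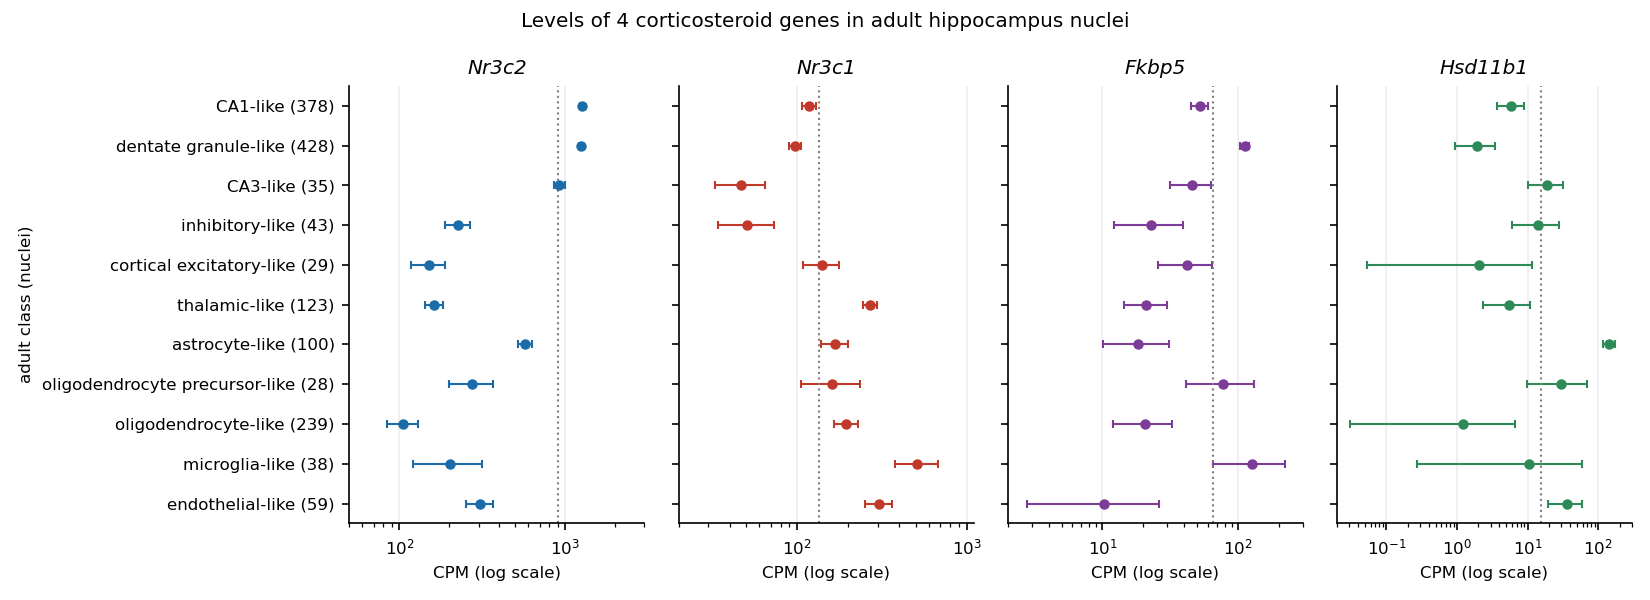
Level of each gene (CPM, log scale; bars are exact 95% Poisson intervals) in 11 adult classes, with the number of nuclei in parentheses and the level over all nuclei as a dotted line. Nr3c2 is highest in CA1-like and granule-like nuclei (1268 and 1243), Nr3c1 in those of the microglia-like class (509) and Hsd11b1 among astrocyte-like nuclei (143), while Fkbp5 is at 112 in granule-like nuclei and its wide interval in microglia-like nuclei overlaps that value.

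The ratio of Nr3c2 to Nr3c1 UMIs within a class takes both genes from the same nuclei, and it was highest in the hippocampal principal neurons. It was 10.8 (exact 95% interval 9.77 to 11.9) in CA1-like nuclei, from 4732 and 439 UMIs. In granule-like nuclei it was 12.7 (11.7 to 13.9), from 7177 and 563 UMIs, and in CA3-like nuclei 19.7 (14 to 28.5), from 689 and 35. The intervals of CA1-like and granule-like nuclei overlapped slightly, and that of CA3-like nuclei lay above both.

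Glia were not of one kind by this measure. Astrocyte-like nuclei had 3.42 (2.80 to 4.2) Nr3c2 UMIs per Nr3c1 UMI, precursor-like nuclei 1.70 (1.04 to 2.85), oligodendrocyte-like nuclei 0.537 (0.409 to 0.701) and microglia-like nuclei 0.396 (0.220 to 0.686). Over the 4 glial classes together the ratio was 1.61 (1.41 to 1.84), against 11.9 (11.2 to 12.7) over the CA1-like, CA3-like, granule-like and inhibitory-like classes. The glial sum joins astrocyte-like nuclei, with more Nr3c2 than Nr3c1 UMIs, and oligodendrocyte-like and microglia-like nuclei, with fewer. The microglia-like ratio rests on 19 and 48 UMIs and was 1.29 when classes were taken from marker UMIs per nucleus.

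Neurons were not of one kind either. Inhibitory-like nuclei had a ratio of 4.41 (2.93 to 6.85), cortical excitatory-like nuclei 1.07 (0.760 to 1.52) and thalamic-like nuclei 0.601 (0.509 to 0.707), so that thalamic-like neurons were on the side of oligodendrocyte-like nuclei. Endothelial-like nuclei had 120 UMIs of each gene. Per kilobase of span the ratio fell by the ratio of the 2 lengths, 3.17, to 3.40 (3.08 to 3.75) in CA1-like, 4.02 (3.69 to 4.38) in granule-like, 1.08 (0.882 to 1.32) in astrocyte-like and 0.169 (0.129 to 0.221) in oligodendrocyte-like nuclei. On that scale the astrocyte-like value did not differ from 1 beyond counting error.

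The same division was present nucleus by nucleus, with the Malat1-poor clusters left out. Nr3c2 UMIs outnumbered Nr3c1 UMIs in 173 of 184 CA1-like nuclei (94.0%), in 408 of 428 granule-like nuclei (95.3%) and in 33 of 35 CA3-like nuclei (94.3%). In thalamic-like nuclei the opposite held, with Nr3c1 UMIs more numerous in 46 of 63 (73.0%) and more Nr3c2 UMIs in 11. Among 239 oligodendrocyte-like nuclei 83 had more Nr3c1, 37 more Nr3c2 and 119 the same number, which was 0 of both in 107. Both transcripts were seen in the same nucleus in 77.7% of CA1-like, 63.1% of granule-like, 55.0% of astrocyte-like and 12.6% of oligodendrocyte-like nuclei, shares that depth also sets.

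**Figure D2:**
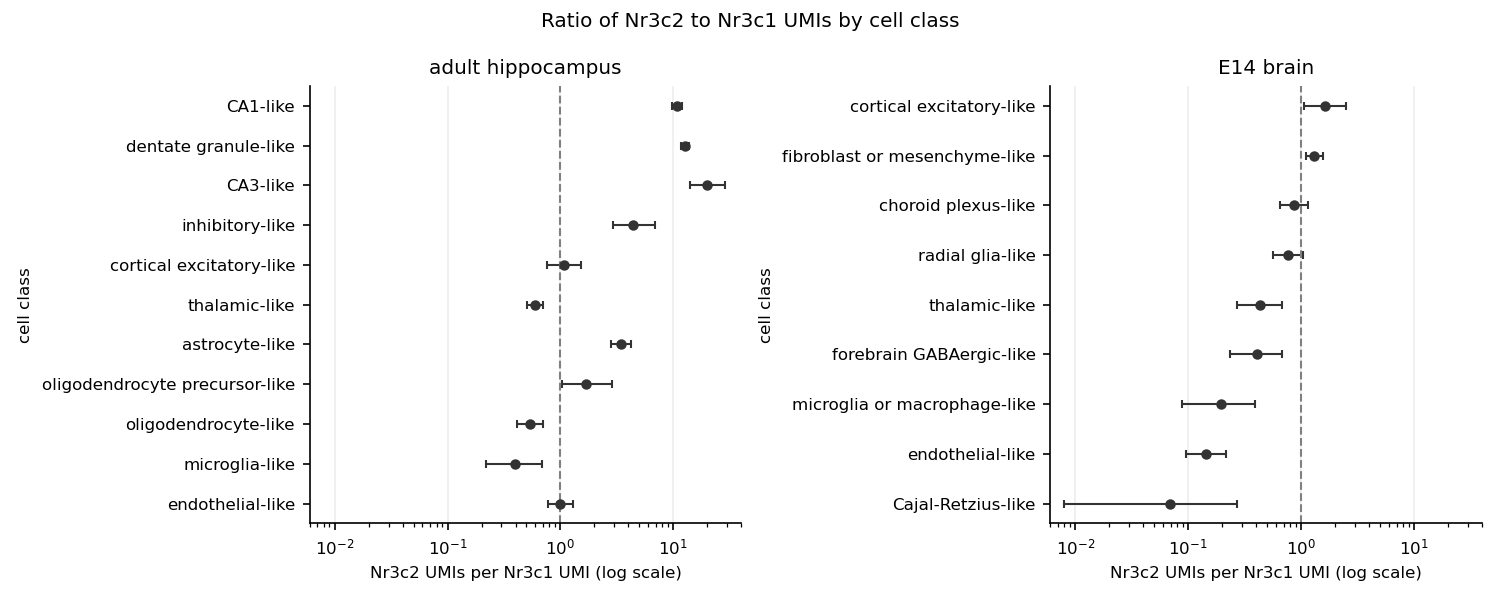
Nr3c2 UMIs per Nr3c1 UMI (log scale; points are ratios of summed UMIs, bars are exact 95% intervals, the dashed line marks equal UMIs) in adult and E14 classes. CA1-like, granule-like and CA3-like nuclei lie at 10.8, 12.7 and 19.7, thalamic-like, oligodendrocyte-like and microglia-like nuclei below 1 (microglia-like 1.29 with classes from marker UMIs per nucleus), and the E14 classes between 0.069 and 1.62.

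Within CA1-like and within granule-like nuclei Nr3c2 differed between clusters by more than Nr3c1 did. Of the 2 Malat1-rich CA1-like clusters, that led by Col11a1 (48 nuclei) had 1836 CPM of Nr3c2 and the other (136 nuclei) 1100, a 1.67-fold difference (1.57 to 1.77). The Nr3c1 levels of these clusters were 112 and 118, a ratio of 0.947 (0.759 to 1.18). Their Nr3c2 to Nr3c1 ratios were 16.5 (13.7 to 20.0) and 9.34 (8.27 to 10.6), and that of the Malat1-poor cluster was 2.66 (1.75 to 4.12).

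Granule-like nuclei fell into a cluster of 221 nuclei led by Ryr1 (median 11831 UMIs) and one of 207 led by Gm30551, with the granule marker Trpc6 among its leading genes (median 10862). Nr3c2 stood at 1524 in the first and 904 in the second, a 1.69-fold difference (1.6 to 1.77) between clusters of similar depth. Nr3c1 went the other way, with 85.0 and 112, a ratio of 0.756 (0.638 to 0.895). The Nr3c2 to Nr3c1 ratios were 17.9 (15.9 to 20.4) and 8.04 (7.12 to 9.11), a wider gap than that between the CA1-like and granule-like classes. Fkbp5 differed by less than counting error between these clusters, at 106 and 120.

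Reclustering the CA1-like nuclei alone, again without the 4 genes, gave 3 sub-clusters. That led by Col11a1, Fras1 and Ndst4 (64 nuclei) had 1718 CPM of Nr3c2 (1648 to 1789), and that led by Folh1, A830036E02Rik and Gm41414 (117 nuclei) had 1072 (1029 to 1117), a 1.6-fold difference (1.51 to 1.70). Nr3c1 stood at 110 (93.1 to 129) and 119 (105 to 135) in them. The third, led by Rph3a, Pcp4 and Glul, held 197 nuclei of low depth (median 820 UMIs, 0.809% Malat1) with 527 (439 to 628) CPM of Nr3c2 and 148 (103 to 205) of Nr3c1. Low depth and the Malat1 share moved together with the lower Nr3c2 level there, and their part in it was not tested. At resolution 0.8 this group split, and a sub-cluster of 47 nuclei, 46 of them from the Malat1-poor cluster, was led by Prox1, Dsp and Jun. Prox1 is known as a gene of granule neurons, and the CA1-like name was not checked for these nuclei on their own. Their Nr3c2 level was 358 (240.0 to 515).

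The spread between single nuclei was set against that expected from counting. The 184 Malat1-rich CA1-like nuclei had from 0 to 104 Nr3c2 UMIs with a median of 22.0 and quartiles of 11 and 36.0, and their variance was 5.97 times that expected from counting at their depths. For Nr3c1 in the same nuclei the range was 0 to 10 UMIs and the variance 1.34 times that expected. In granule-like nuclei the variance ratios were 5.78 and 1.15. A gene with few UMIs shows less of such spread, so the 2 genes cannot be ranked by it.

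**Figure D3:**
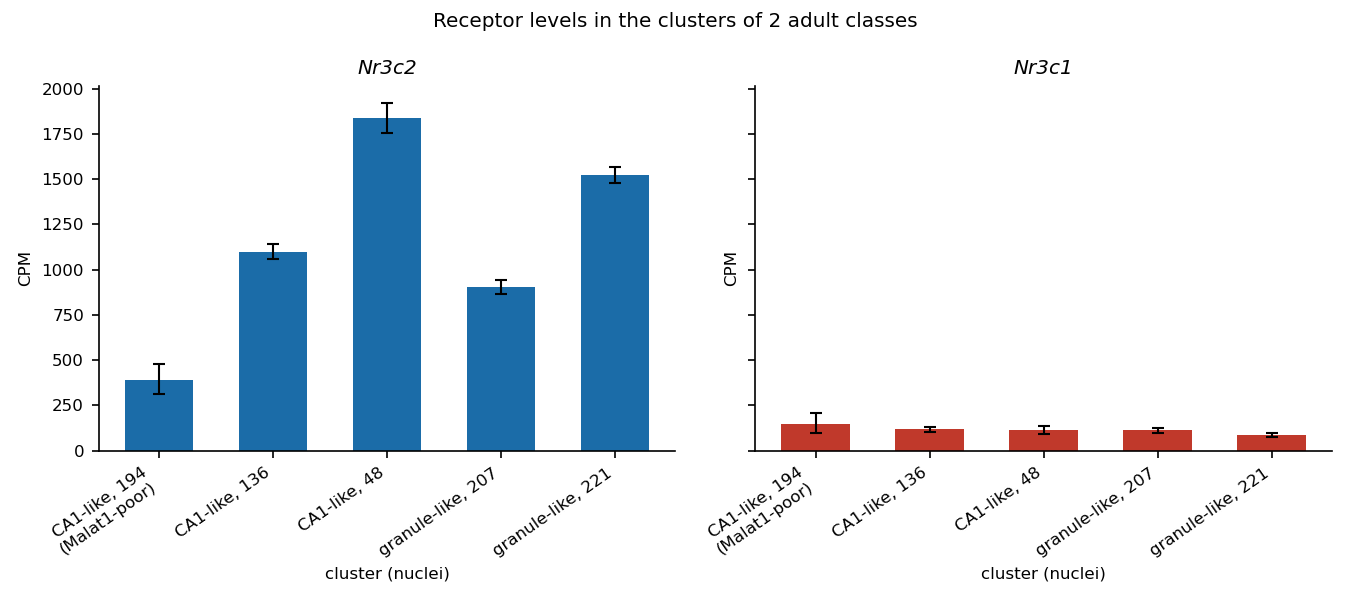
Nr3c2 and Nr3c1 levels (CPM, bars from 0 with exact 95% Poisson intervals) in the 3 CA1-like and 2 granule-like clusters, labelled with their nuclei. Nr3c2 runs from 389 in the Malat1-poor cluster to 1836 in the CA1-like cluster of 48 nuclei, while the 5 Nr3c1 levels lie between 85.0 and 147.

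Genes whose pattern over the 11 adult classes was most like that of a receptor were ranked by Pearson's correlation of log2(CPM + 5), among 5763 other genes with at least 500 UMIs. For Nr3c2 they were Slc24a4 (r = 0.945), Abl2 (0.913), Ppp1r1a (0.905), Arhgef25 (0.895) and Kcnip2 (0.891). For Nr3c1 they were Sdhc (0.916), Scaf1 (0.903), Bod1l (0.896), Wipf2 (0.891) and Xiap (0.876). Nr3c2 and Nr3c1 themselves had r = -0.467. The 11 points share 1 library and differ in depth, and these values are a description of it.

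Fkbp5, which slows the transfer of the receptor to the nucleus, was highest in granule-like nuclei among the classes with more than 20 of its UMIs. It lies at chr17:28399094-28517527 on the minus strand (118.4 kb). Its level was 112 (104 to 121) in granule-like nuclei, from 649 UMIs, and 52.3 (45.2 to 60.1) in CA1-like nuclei, from 195, 0.465 times (0.394 to 0.547) the granule-like level. Relative to oligodendrocyte-like nuclei at 20.5 (11.9 to 32.8) the granule-like level was 5.49 times higher (3.40 to 9.48), and relative to astrocyte-like nuclei at 18.4 (10.1 to 30.9) it was 6.1 times higher (3.61 to 11.2).

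As a class, granule-like nuclei thus had more Fkbp5 and less Nr3c1 than CA1-like nuclei. The Nr3c2 levels differed by less than counting error with the Malat1-poor CA1-like nuclei and were 1.06-fold apart without them. For Nr3c1 the granule-like cluster led by Ryr1 was the lower, at 85.0. That led by Gm30551 had 112, beside 112 and 118 in the Malat1-rich CA1-like clusters. Microglia-like nuclei had the highest Fkbp5 level, 127 (65.8 to 222), but from 12 UMIs, and this did not differ from the granule-like level beyond counting error. Precursor-like nuclei had 77.4 (41.2 to 132), CA3-like 45.5 (31.5 to 63.5), cortical excitatory-like 41.7 (25.5 to 64.4), inhibitory-like 22.9 (12.2 to 39.1), thalamic-like 21.0 (14.3 to 29.9) and endothelial-like 10.2 (2.77 to 26.0). No 2 neighbours in the order of classes differed beyond their intervals, although the ends did. Endothelial-like and thalamic-like nuclei, both high in Nr3c1, were at the low end for Fkbp5.

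After thinning to 1000 UMIs, 8.20% (5.78 to 11.2) of granule-like, 4.28% (2.16 to 7.53) of CA1-like, 2.18% (0.713 to 5.02) of oligodendrocyte-like and 2.02% (0.246 to 7.11) of astrocyte-like nuclei had an Fkbp5 UMI, where unthinned shares were 65.0%, 28.6%, 5.86% and 11%. Without the Malat1-poor nuclei the CA1-like share was 54.9% (47.4 to 62.2), and 5.43% (2.64 to 9.77) after thinning. Per kilobase of span, Fkbp5 (0.949) and Nr3c1 (0.895) stood at similar levels in granule-like nuclei, and Nr3c2 (3.6) above both.

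Both receptors bind an inverted repeat that can be written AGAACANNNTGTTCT, or with a free base in each arm AGNACANNNTGTNCT. Each is its own reverse complement, so a search covers both strands, and the second includes the first. They were searched in the spans of Nr3c2, Fkbp5 and Hsd11b1 in the RefSeq genome GRCm38.p6, and the 4 matches are shown because Fkbp5 and Sgk1 are known targets of the receptors, with the match in capitals, 5 flanking bases on each side and the strand of the gene.
Fkbp5 intron, chr17:28420316-28420340, minus strand: cattcAGAACAGGGTGTTCTgtgct
Fkbp5 intron, chr17:28442414-28442438, minus strand: gtttgAGAACAGCTTGTTCTaggct
Nr3c2 intron, chr8:77130663-77130687, plus strand: cccatAGCACAGTGTGTCCTcatgg
Nr3c2 intron, chr8:77234951-77234975, plus strand: ggaagAGGACAGTGTGTGCTcaata

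Both Fkbp5 matches carried the stricter form, 97.2 and 75.1 kb downstream of the start of the gene, and were 2 of 25 such matches on chromosome 17. Of 771 consecutive windows of the length of Fkbp5 on that chromosome, 2.98% held at least 1 strict match and 0 held 2, the window edges splitting the Fkbp5 pair. The freer form was in 24.1% of these windows. The 2 matches in Nr3c2 were of the freer form alone, which 54.1% of the windows of that length on chromosome 8 held at least once and 16.8% at least 2 times. Hsd11b1 had no match, and 9.44% of windows of its length on chromosome 1 had one. No match was found in the 3 promoters of the 4 genes that RefSeq gave (250 bases before to 50 after the start), and 0.0639% of 32851 promoters had one. Among 29 promoters of 18 corticosteroid target genes, 1 had a match, at -189 bases from the start of Sgk1, a kinase gene induced by both receptors.
Sgk1 promoter, chr10:21993701-21993715 in capitals, plus strand: cggaaAGAACAGAATGTTCTcggag

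These matches describe the sequence and say nothing of binding in these nuclei. The Sgk1 level was 86.0 in CA1-like and 75 in granule-like nuclei, where Fkbp5 differed about as 52.3 to 112.

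Hsd11b1 was highest in astrocyte-like nuclei. It lies at chr1:193221634-193264075 on the minus strand (42.44 kb) and had 241 UMIs in all. Astrocyte-like nuclei, 100 of 1609, gave 109 of these, a level of 143 (118 to 173), and the next classes were endothelial-like nuclei with 35.6 (19.4 to 59.7), from 14 UMIs, and precursor-like nuclei with 29.8 (9.66 to 69.4), from 5. The astrocyte-like level was 4.03 times (2.30 to 7.61) the endothelial-like level.

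Hsd11b1 levels were low in neurons. The level was 18.7 (10.2 to 31.4) in CA3-like nuclei, from 14 UMIs, beside 14.1 (6.08 to 27.7) in inhibitory-like, 5.90 (3.70 to 8.93) in CA1-like and 1.90 (0.951 to 3.41) in granule-like nuclei. CA3-like nuclei stood at 3.18 times (1.5 to 6.49) the CA1-like level and did not differ from inhibitory-like nuclei beyond counting error. An Hsd11b1 UMI was present in 22.9% (10.4 to 40.1) of CA3-like nuclei (median 18913 UMIs). After thinning to 1000 UMIs the share was 0% (0 to 10.0), which overlaps the 1.17% (0.241 to 3.37) of CA1-like nuclei. From these few UMIs the fold is not read as a difference. In the CA1-like class 5 of the 22 UMIs came from the Malat1-poor cluster, whose level of 22.9 was above the 4.91 and 4.69 of the other 2 clusters.

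An Hsd11b1 UMI was present in 47.0% (36.9 to 57.2) of astrocyte-like nuclei (median 6301 UMIs) and 15.3% (7.22 to 27.0) of endothelial-like nuclei (4003), against 0.418% (0.0106 to 2.31) of oligodendrocyte-like nuclei (3049), which served as background. After thinning to 1000 UMIs the astrocyte-like share was 13.1% (7.18 to 21.4). Granule-like nuclei, at a median of 11382 UMIs, had one in 2.34% (1.13 to 4.25), which overlaps the background and is not read as expression. Per kilobase of span, Hsd11b1 reached 3.38 in astrocyte-like nuclei, where Nr3c2 stood at 1.65 and Nr3c1 at 1.53. The neighbouring gene Lamb3 overlaps it on the opposite strand and had 59 UMIs in the library.

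Hsd11b1 was also high in 2 clusters that kept no class name. The Malat1-poor cluster of 88 nuclei with Sox9 and Aldoc among its leading genes had 167 CPM of Hsd11b1, and a cluster of 21 nuclei led by B230323A14Rik, Etnppl and Lgr6 had 101. Their Nr3c2 levels were 162 and 806, and their Nr3c2 to Nr3c1 ratios 0.921 (0.565 to 1.5) and 3.83 (2.40 to 6.35).

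The wider set of genes around the receptors was read with a rule of size, a 2-fold difference among genes with at least 20 UMIs. Between CA1-like and granule-like nuclei 8.09% of 13880 genes were past it upward and 12.4% downward. Of the 4 genes, Fkbp5 was lower in CA1-like nuclei. Hsd11b1 was past 2-fold upward by the rule, 3.1-fold (1.44 to 7.07) from 22 and 11 UMIs, and 2.54-fold (1.12 to 6.0) without the Malat1-poor nuclei. Its unthinned share in CA1-like nuclei, 4.5% (2.64 to 7.1), was above that of the background class, 0.418% (0.0106 to 2.31). After thinning, the shares of 1.17% (0.241 to 3.37) and 0% (0 to 1.6) overlapped. From these few UMIs it is not read as a difference. Of the related steroid receptors Pgr (progesterone receptor, 27.1 against 11.1 CPM) was past 2-fold upward in CA1-like nuclei. Esr1 (oestrogen receptor alpha, 4.29 against 1.56) was past it by the rule, but from 16 and 9 UMIs, and is likewise not read as a difference. Abundance within a list is given here by UMIs, not per length.

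The next lists hold the chaperones that keep the receptors ready for hormone and the coregulators they recruit. Of 12 chaperones Fkbp5 was past 2-fold and 11 were within it, among them the most abundant, Hsp90ab1 (648 and 500), and Fkbp4, the counterpart that favours nuclear transfer (16.9 and 27.9). Of 12 coregulators, Nrip1, a corepressor of nuclear receptors, was higher in CA1-like nuclei (142 and 47.8) and Smarca2, a chromatin remodelling ATPase, lower (68.9 and 201), while the most abundant, Ncor1, had 366 and 433. Of 17 measured target genes Per1 (27.1 and 10.4) and Dusp1 (5.36 and 1.39) were past 2-fold upward in CA1-like nuclei by the rule. Dusp1 rested on 20 and 8 UMIs and is not read as a difference. Fkbp5 and Ddit4 (9.92 and 20.3) were lower, and the most abundant, Zbtb16, had 305 and 288. Without the Malat1-poor cluster 4 were lower, Mt1 and Mt2 being added. Of 4 measured genes of steroid supply Hsd11b1 alone was past 2-fold, on the few UMIs given above, and of 2 measured genes of the stress hormone axis Crhr1, a receptor of corticotropin-releasing hormone, was higher in CA1-like nuclei (16.4 and 4.16).

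Neurons and glia were compared as equal-weight means of 4 classes each, with 18.6% of 15450 genes past 2-fold upward and 24.1% downward in neurons. On this scale Nr3c2 was 915 in neurons and 288 in glia (3.18-fold higher) and Nr3c1 78.3 and 258 (3.30-fold lower). Hsd11b1 was 10.2 and 46.2 (4.55-fold lower), and Fkbp5 58.3 and 60.9. Microglia-like nuclei had 48 Nr3c1 and 12 Fkbp5 UMIs. Without them the glial means were 316 for Nr3c2, 174 for Nr3c1, 58.1 for Hsd11b1 and 38.8 for Fkbp5. The first 3 genes stayed past 2-fold in the same direction. Each value rests on classes of unequal depth, microglia-like nuclei having 94234 UMIs in all.

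More of the target genes were lower than higher in neurons. Of 18 measured, 8 were lower in neurons by the rule and 1 was higher, with a median log2 difference of -0.51 against -0.16 for all genes. The 8 were Mt2 (5.01 and 70.5), Tsc22d3 (6.43 and 66), Mt1 (36.1 and 344), Arrdc2 (1.13 and 7.81), Nfkbia (4.04 and 23.1), Plin4 (1.56 and 5.74), Dusp1 (2.69 and 9.83) and Ddit4 (12.7 and 33.5). The glial means of Arrdc2, Plin4 and Dusp1 rested on 25, 11 and 16 UMIs. They lay below 14.3 CPM, the mean that 3 UMIs in each glial class would give. On this equal-weight scale these genes are thus not read as 2-fold differences. Mt1 and Mt2 code for metallothioneins, Tsc22d3 for a leucine zipper protein induced by glucocorticoids, and Nfkbia for an inhibitor of NF-kappa-B.

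These genes did not share 1 glial class. Tsc22d3 stood at 149 in oligodendrocyte-like, 72.3 in astrocyte-like and, from 4 UMIs, 42.4 in microglia-like nuclei, with 5.36 in CA1-like and 3.12 in granule-like nuclei, whereas Mt1 stood at 972 in astrocyte-like and 95.2 in oligodendrocyte-like nuclei. Endothelial-like nuclei, outside this comparison, had 135 for Tsc22d3, 508 for Mt1 and 328 for Nfkbia. The gene higher in neurons was Zbtb16, a zinc finger transcription factor, at 240 in neurons and 36.7 in glia, with 305 in CA1-like, 288 in granule-like, 260 in inhibitory-like, 108 in CA3-like and 72.3 in astrocyte-like nuclei. Without microglia-like nuclei Cebpd (20.3 and 8.41) was past 2-fold as well.

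Among the steroid receptors Nr3c2 was higher in neurons and Nr3c1 lower, and Pgr had 15.6 and 5.72, the latter from 7 UMIs. None of 12 chaperones was past 2-fold, the most abundant again being Hsp90ab1 (506 and 389). Of 12 coregulators Ep300 (73.0 and 156) and Nrip1 (72.8 and 240) were lower in neurons, which rested on microglia-like nuclei at 340 (32 UMIs) and 732 (69 UMIs). Without that class the glial means were 94.4 and 75.3 and neither was past 2-fold, and Ncoa1, the most abundant in neurons, had 384 and 329. In steroid supply Hsd11b1 was lower in neurons. Abcb1a, an efflux pump for steroids (0.914 and, from 13 UMIs, 6.54, with 963 in endothelial-like nuclei), was past 2-fold downward by the rule. Srd5a1, a steroid reductase, had 21.3 and 8.76, with no UMI in microglia-like and precursor-like nuclei, and was within 2-fold (11.7 in glia) without the microglia-like class. H6pd of the same list went the other way, being past 2-fold upward in neurons (4.59 and 1.32) without that class. It had 6 glial UMIs, 3 of them microglia-like. The 4 measured genes of the stress hormone axis, Crhbp (17.2 and 1.23), Crhr1 (10.2 in neurons), Crhr2 (2.57 and 0.329) and Mc4r (1.52 in neurons), were past 2-fold upward in neurons by the rule. Crhr1 and Mc4r had no UMI in the 4 glial classes, Crhr2 had 1 and Crhbp 4. With 3 UMIs in each glial class the mean would be 14.3 CPM, and the glial means of these 4 lay below it. This limit is set mainly by small classes, 3 UMIs being 31.8 CPM in microglia-like and 17.9 in precursor-like nuclei. On this equal-weight scale the 4 are thus not read as 2-fold differences. The same held for Pgr, Srd5a1, H6pd and Abcb1a. Leaving out the Malat1-poor cluster changed no count of this comparison.

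**Figure D4:**
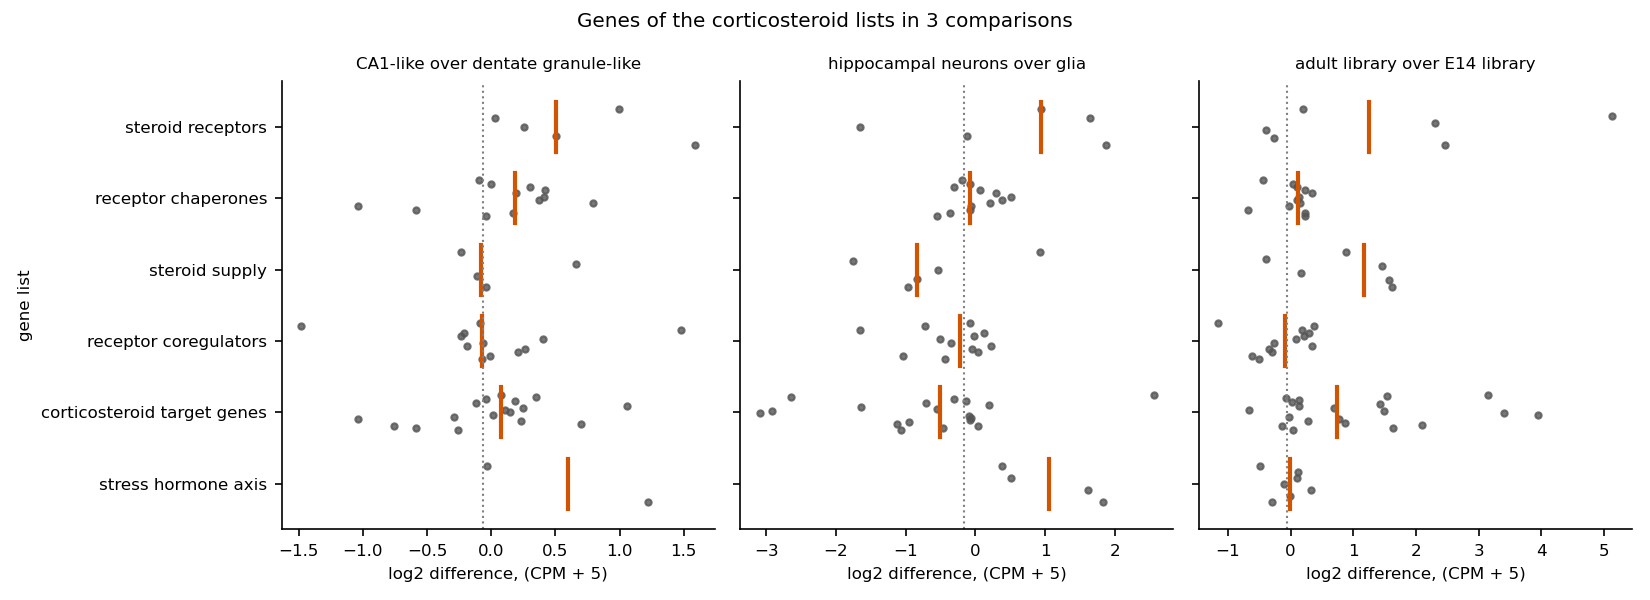
Log2 difference of (CPM + 5) for each measured gene of 6 lists (points), the median of the list (orange line) and the median of all measured genes (dotted line), in 3 comparisons. The chaperones and coregulators past 2-fold in a comparison are Fkbp5, Nrip1, Smarca2, Ep300 and Smarca4. By folds of CPM without the added 5, 8 of 18 target genes are past 2-fold downward in neurons against glia and 9 of 20 upward in adult against E14. On the plotted scale Plin4 (-0.711) and Dusp1 (-0.947) in the former and Ddit4 (0.868) in the latter fall short of 2-fold.

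In the E14 library both receptors were lower than in the adult library. Over all nuclei Nr3c1 stood at 23.2 (22.0 to 24.5) and Nr3c2 at 21.0 (19.9 to 22.2), a ratio of Nr3c2 to Nr3c1 of 0.905 (0.837 to 0.978), against 6.68 (6.38 to 7.0) in the adult library. Per kilobase of span these ratios were 0.285 (0.264 to 0.308) and 2.10. Among named classes, fibroblast- or mesenchyme-like nuclei had the highest Nr3c2 level, 111 (99.6 to 124) CPM, with 85.5 (75.2 to 96.9) of Nr3c1. Microglia- or macrophage-like nuclei had 85.3 (63.5 to 112) Nr3c1 but 16.7 (8.02 to 30.8) Nr3c2, and endothelial-like nuclei 80.8 (69.9 to 92.8) and 11.7 (7.84 to 16.8), so that the Nr3c1 levels of these 3 classes did not differ beyond counting error.

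Levels of Nr3c1 in the named classes of E14 neurons and progenitors were below those. Cortical excitatory-like nuclei had 7.42 (5.23 to 10.2) Nr3c1 and 12.0 (9.19 to 15.5) Nr3c2, radial glia-like nuclei 17.4 (14.2 to 21.1) and 13.3 (10.5 to 16.5), and thalamic-like nuclei 19.8 (15.3 to 25.1) and 8.57 (5.74 to 12.3). Among named classes the Nr3c2 to Nr3c1 ratio of UMIs was above 1 in cortical excitatory-like nuclei, at 1.62 (1.06 to 2.51), and in fibroblast- or mesenchyme-like nuclei, at 1.30 (1.10 to 1.55), which per kilobase of span is 0.511 and 0.411. Among unnamed clusters, that of 991 nuclei led by Prox1 had a ratio of 2.93 (2.18 to 4.0), with 39.4 (33.8 to 45.6) CPM of Nr3c2, and that of 655 nuclei led by Sim1 had 2.84 (1.87 to 4.42). It was 0.145 (0.0947 to 0.215) in endothelial-like nuclei and 0.069 (0.00797 to 0.273) in Cajal-Retzius-like nuclei, the latter from 2 and 29 UMIs. After thinning to 1000 UMIs, 11.8% (8.66 to 15.7) of fibroblast- or mesenchyme-like nuclei had an Nr3c2 UMI, and 0.496% (0.102 to 1.44) of cortical excitatory-like nuclei.

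The Fkbp5 level over all E14 nuclei was 67.0 (64.9 to 69.1), and among the 9 named classes it ran from 50.5 (41.9 to 60.4) in choroid plexus-like to 83.6 (62.1 to 110) in microglia- or macrophage-like nuclei. By cluster it ran from 38.4 (26.9 to 53.2) to 151 (99.5 to 220), the latter in 33 of the microglia- or macrophage-like nuclei. Hsd11b1 was at 2.58 (2.19 to 3.02) over all nuclei. Its highest named class was cortical excitatory-like, at 5.82 (3.9 to 8.36) from 29 UMIs, and radial glia-like nuclei had 0.994 (0.365 to 2.16) from 6.

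Of the 4 genes, Nr3c2 had the widest difference between the libraries. It was 43.0 times (40.5 to 45.6) higher in the adult library, in CPM, Nr3c1 5.82 times (5.44 to 6.24), Hsd11b1 6.09 times (4.95 to 7.51), and Fkbp5 0.982 times (0.915 to 1.05). Among all genes with at least 20 UMIs, 17.2% of 20842 were at least 2-fold higher and 24.1% lower. Age, brain region, sampling, depth and the version of the counting software differ together between the 2 libraries and cannot be told apart.

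Classes of the same name showed the receptor differences as well. Nr3c2 was 12.5 times (8.73 to 17.9) higher in adult than in E14 cortical excitatory-like nuclei, 18.9 times (12.8 to 28.9) in thalamic-like and 26.0 times (17.2 to 40.5) in endothelial-like nuclei. Nr3c1 was 18.8 times (12.4 to 28.9) higher in cortical excitatory-like, 13.6 times (10.5 to 17.9) in thalamic-like and 3.78 times (2.99 to 4.76) in endothelial-like nuclei. Fkbp5 went the other way in 2 of these classes, at 0.278 times (0.185 to 0.405) the E14 level in thalamic-like and 0.159 times (0.0429 to 0.416) in endothelial-like nuclei, while the interval of cortical excitatory-like nuclei, 0.421 to 1.10, held 1.

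Hsd11b1 was 11 times (4.31 to 30.3) higher in adult than in E14 endothelial-like nuclei, from 14 and 8 UMIs. Adult astrocyte-like nuclei, set beside E14 radial glia-like nuclei as the nearest glial class there, had 144 times (64.1 to 401) the Hsd11b1 level, 43.1 times (33.9 to 55.4) the Nr3c2 level, 9.60 times (7.35 to 12.6) the Nr3c1 level and 0.237 times (0.129 to 0.402) the Fkbp5 level.

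**Figure D5:**
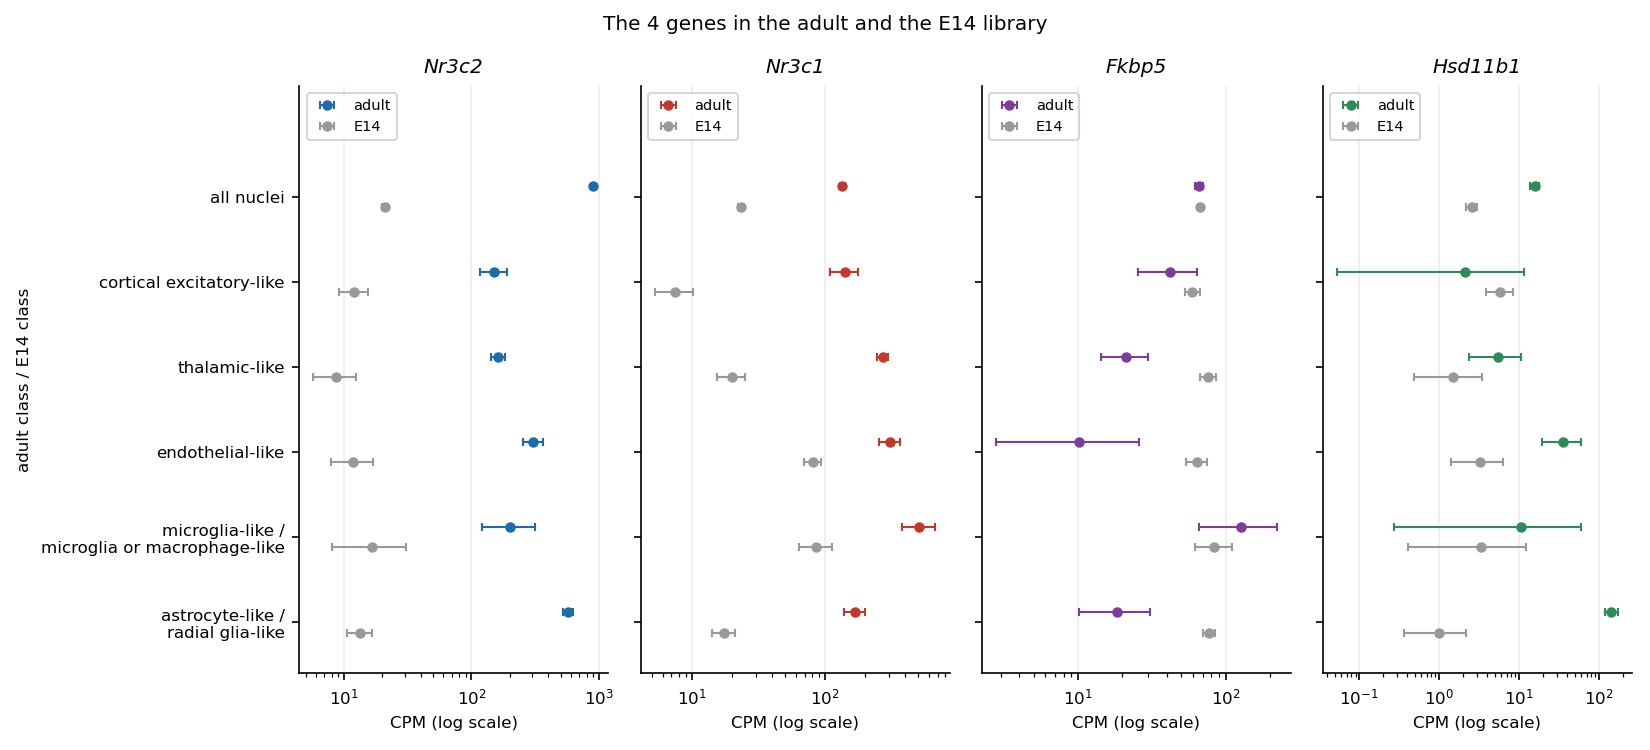
Level of each gene (CPM, log scale; exact 95% Poisson intervals) in the adult (coloured) and E14 (grey) library, over all nuclei and in paired classes. Adult Nr3c2 and Nr3c1 lie to the right of E14 in each pair, Fkbp5 is at 65.7 and 67.0 over all nuclei and lower in adult thalamic-like, endothelial-like and astrocyte-like nuclei, and Hsd11b1 differs most between astrocyte-like and radial glia-like nuclei.

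Of 20 target genes 9 were at least 2-fold higher in the adult library and none was lower, with a median log2 difference of 0.74 against -0.06 for all genes. The largest differences were for Klf9, a zinc finger transcription factor (138 and 4.36 CPM, 31.7-fold), Mt1 (127 and 7.50), Zbtb16 (213 and 19.6, the most abundant in the adult) and Cebpd (28.3 and 2.80), followed by Tsc22d3 (22.8 and 4.55), Per1 (19.1 and 3.97), Mt2 (22.5 and 4.79) and Bcl6 (32.3 and 7.08). Fkbp5 and Sgk1 (102 and 93.0) were within 2-fold.

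None of 12 chaperones was past 2-fold, Hsp90ab1 having 571 and 531. Of 12 coregulators Smarca4, the chromatin remodelling ATPase related to Smarca2, was lower in the adult (85.6 and 195), and Ncor1, the most abundant, had 393 and 339. Among the steroid receptors Nr3c1 and Nr3c2 were higher and Esr2 lower (0.782 and 2.61). In steroid supply Abcb1b (13.0 and 1.05), Hsd11b1, Abcb1a (27.2 and 5.53) and Srd5a1 (20.9 and 9.05) were higher in the adult, whereas Hsd11b2, which inactivates corticosterone, was lower (0.847 and 2.65). In the stress hormone axis Crhbp was higher (3.19 and 1.54), and Pomc (1.82 and 4.58), which codes for the precursor of corticotropin, and Avp (0.847 and 2.21) were lower, with Crhr1, the most abundant, at 8.80 and 9.79.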

How the data were processed

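Slide-tags snRNA-seq was analysed for 1 adult hippocampus and 1 E14 brain library. Per the labels and methods, reads were mapped to mm10 and those in introns were counted. The authors deposited raw UMI counts per gene and nucleus barcode from Cell Ranger (6.1.2 for the adult and 7.0.1 for E14, per the file headers). The E14 counts were taken as made before CellBender, which the methods name. No column belonged to other samples.

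Nuclei with at least 500 UMIs and at most 5% mitochondrial UMIs were kept, 1609 of 1661 and 9036 of 9037. Seurat 5.3.0 in R 4.3.3 (2000 variable genes without the 4 genes, 30 principal components, resolution 0.8) gave 17 and 23 clusters, and CA1-like nuclei were reclustered with 1000 variable genes, 25 components and resolution 0.5. A cluster was named when at least 4 of 8 markers of a list were in at least 10% of its nuclei and 2-fold higher than elsewhere, with 16 adult and 19 E14 lists, 1 of the latter for the cell cycle. Clusters with a median under the library median divided by 3, or led by markers of another list, could lose their name. Marks of doublets came from Scrublet in scanpy 1.11.5. Its automatic calls, 6 and 4 nuclei, were judged not to have worked, and the 21 and 653 highest scores were left out as an alternative only.

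Intervals are exact 95% Poisson for levels, Clopper-Pearson for shares and conditional binomial for ratios. The class sums, intervals and thinning were tested on simulated data. Gene spans are from GENCODE vM21 on GRCm38, the build of mm10, and sequences from RefSeq GRCm38.p6, with chromosome 18 left out of the motif search. The strand setting of the counting is not given in the sources used here. The genes named are the 4 genes, list genes past 2-fold (up to 8 by size) with the most abundant, the 5 most similar to each receptor and the 3 leading a sub-cluster; the single leading genes of main clusters and Neurod6, Malat1 and the overlapping genes were named besides. The 4 genes and all lists were chosen with earlier results of these data known. One gene of the steroid receptor list is not reported here, so no count is given for that list.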

Additional observations from a re-analysis of the deposited data

How the results depend on the processing

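No paired analysis was possible because each tissue had 1 library. The Nr3c2 to Nr3c1 ratios of CA1-like, granule-like, astrocyte-like and oligodendrocyte-like nuclei and the Nr3c2 fold between CA1-like sub-clusters gave 37 values. Of these, 36 stayed within their counting intervals. The ratios were taken over other UMI and mitochondrial limits, resolutions and numbers of variable genes, and with doublets or Malat1-poor clusters left out. Classes from marker UMIs per nucleus and equal weight per nucleus were the remaining settings. The sub-cluster fold was compared between resolutions 0.5 and 0.8, where it was 1.6 and 1.58. The exception was CA1-like nuclei weighted equally, with a ratio of 6.78, the class then resting largely on its 194 shallow nuclei. The ratio without that cluster was 11.4. With classes from marker UMIs per nucleus the microglia-like ratio crossed 1, to 1.29 (44 nuclei), and the cause was not tested. Of the other values 643 stayed within their limits and 87 moved, without a change of side. Leaving out Malat1-poor clusters in the list comparisons, the shares of nuclei with a UMI and the CA1-like to granule-like fold, and microglia-like nuclei in the neuron to glia lists, was chosen after seeing the data. Small classes limit precision, and many adult levels of Hsd11b1 and Fkbp5 rest on few UMIs.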
